A study of Homo sapiens with 8 samples.

Results

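The genes described here were the 10 rows of the count files named CYR61, CTGF, NOV, WISP1, ANKRD1, AMOTL1, AMOTL2, AJUBA, AXL and CCDC80, out of 16796 genes. They were chosen by name as members of the CCN family and as genes known to respond to the co-activator YAP1, a rule that uses no measured value, although earlier results of these data were known. The cells were LX-2, a human line derived from hepatic stellate cells, which become the matrix-producing myofibroblasts of a scarred liver. Control cultures received the vehicle DMSO. OGTi cultures received 50 µM of OSMI-1, a small molecule that blocks O-GlcNAc transferase (OGT), the enzyme that attaches single N-acetylglucosamine sugars to nuclear and cytoplasmic proteins. Both groups grew with 5% serum and were harvested at 24 h, and each had 4 libraries from biological replicates of this single cell line. Treated and control cultures of the same replicate number were paired.

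YAP1 and its paralog TAZ carry no DNA-binding domain and reach their target genes through the TEAD factors, while the Hippo kinases hold them in the cytoplasm. Stiff matrix, spread cell shape and actin tension move them into the nucleus, and in stellate cells this programme accompanies conversion to myofibroblasts. CYR61 (CCN1), CTGF (CCN2) and ANKRD1 are the targets most often used to read out YAP activity. CCN proteins are secreted matricellular proteins that bind integrins and proteoglycans and tune adhesion and growth factor signalling.

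The proximal promoters of CTGF and ANKRD1 both hold more than 1 copy of GGAATG, the core sequence read by TEAD factors. In the RefSeq promoters (GRCh38.p14), the 250 bases before the start site were searched on both strands for GGAATG and for TGANTCA, a pattern that takes in TGACTCA and TGAGTCA, the sequences read by AP-1. The 3 sequences below run 5′ to 3′ in the direction of transcription, with the matched letters in capitals. CTGF and ANKRD1 are readout genes, and WTIP, a relative of AJUBA described further on, is shown because it also held 2 matches.
CTGF, chr6:131951373-131951622, minus strand: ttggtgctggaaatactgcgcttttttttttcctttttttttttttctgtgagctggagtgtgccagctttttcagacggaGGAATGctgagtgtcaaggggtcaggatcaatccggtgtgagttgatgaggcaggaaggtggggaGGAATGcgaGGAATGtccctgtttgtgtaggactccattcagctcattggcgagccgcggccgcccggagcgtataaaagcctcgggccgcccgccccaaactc
ANKRD1, chr10:90921088-90921337, minus strand: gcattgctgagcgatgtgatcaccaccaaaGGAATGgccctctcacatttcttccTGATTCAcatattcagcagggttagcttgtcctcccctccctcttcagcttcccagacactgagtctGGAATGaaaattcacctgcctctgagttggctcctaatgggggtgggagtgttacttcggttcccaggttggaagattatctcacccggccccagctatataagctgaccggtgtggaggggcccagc
WTIP, chr19:34481508-34481757, plus strand: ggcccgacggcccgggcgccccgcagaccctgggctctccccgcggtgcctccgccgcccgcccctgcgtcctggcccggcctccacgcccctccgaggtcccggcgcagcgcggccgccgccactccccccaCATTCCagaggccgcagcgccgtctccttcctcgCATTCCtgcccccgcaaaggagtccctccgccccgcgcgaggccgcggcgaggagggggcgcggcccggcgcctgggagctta

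Counted back from the start site, the first bases of the 3 CTGF matches lay at -169, -104 and -95, all in the direction of transcription. ANKRD1 had GGAATG at -220 and -128 and a TGANTCA match at -195, which reads TGATTCA and is neither of those AP-1 sequences. The WTIP matches, at -117 and -83, read CATTCC because they lie on the opposite strand. Among 35116 RefSeq promoters of the same length, 11.9% held GGAATG at least once, 0.940% at least 2 times and 0.0826% at least 3 times, and 6.57% held TGANTCA. Of the 10 genes, 7 had a promoter in this table, and CYR61, NOV and WISP1 did not. Of the relatives and ligands described further on, 8 had a RefSeq promoter, and only 2 of these held GGAATG, namely WTIP and ANKRD23 (-144). Apart from CTGF and ANKRD1, single GGAATG matches lay in the second listed promoters of AMOTL2 (-69), AJUBA (-59) and AXL (-212). These second windows lie inside the gene intervals given below, and the first listed promoters of AMOTL2, AJUBA and AXL had no match. The listed promoters of AMOTL1 and CCDC80 had no match to these letters either. These matches are letters in a window and were not measured as bound sites. The windows of AMOTL1 (94768106 to 94768355) and CCDC80 (112641144 to 112641393) lie inside the gene intervals given below, whose outer starts were not searched.

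The 8 libraries held between 24166756 and 28201215 expected counts. NOV, which had the fewest counts of the 10 genes apart from WISP1, still had a counting error of 3.45% in control and 4.06% in OGTi libraries. The 10 genes together took 0.624% to 0.720% of the counts in the control libraries and 0.476% to 0.578% in the OGTi libraries. Among the stellate and myofibroblast markers, 9 of 11 had a mean of at least 100 normalized counts. Desmin (DES) and LRAT, the latter a marker of quiescent stellate cells, were under 10 in every library. The stellate and myofibroblast markers summed to 220483 to 246521 normalized counts in control and 165910 to 198701 in OGTi. COL1A1 (84778 to 43931) and VIM (95086 to 89632, not called) made up most of this sum. COL1A1, COL1A2, COL3A1, PDGFRB, ACTA2, THY1 and SPARC were called lower, and TIMP1 was called higher (12613 to 17868). Whether these changes bear on the 10 genes was not tested. Markers of hepatocytes, endothelial cells, macrophages and cholangiocytes summed to at most 141 normalized counts per library and cell type. The endothelial sum was 49.7 to 91.1 in control and 17.0 to 33.8 in OGTi, and the cholangiocyte sum was 68.6 to 141 and 35.2 to 77.1. Within this single cell line, CDH5 (mean 37.3 to 3.86) and KRT7 (111 to 53.8) made up most of these falls. The part of these genes in the results was likewise not tested. OGT mRNA itself, whose product OSMI-1 inhibits, went from 5636 ± 260 to 4146 ± 477 normalized counts (-0.45 ± 0.09 on the log2 scale, q = 1.48e-06).

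Of the 9 genes with enough counts for an adjusted p-value, 6 were called lower in OGTi, namely CCDC80, AJUBA, CYR61, AMOTL2, NOV and ANKRD1. CTGF, AXL and AMOTL1 were not called, and WISP1 was barely detected. A call means an adjusted p-value (q) of 0.05 or lower in DESeq2 over all genes. Of the 14028 genes tested, 24.0% were called lower and 22.7% higher, or 46.6% in either direction. In 4 of the 9 the OGTi libraries all lay below the control libraries, a separation that 20.2% of all genes tested showed in this direction and 19.8% in the other. The median log2 fold change was -0.53 over the 9 genes and 0.00 over all genes tested. Bulk libraries cannot tell less mRNA in every cell from fewer cells that carry it.

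**Figure D1:**
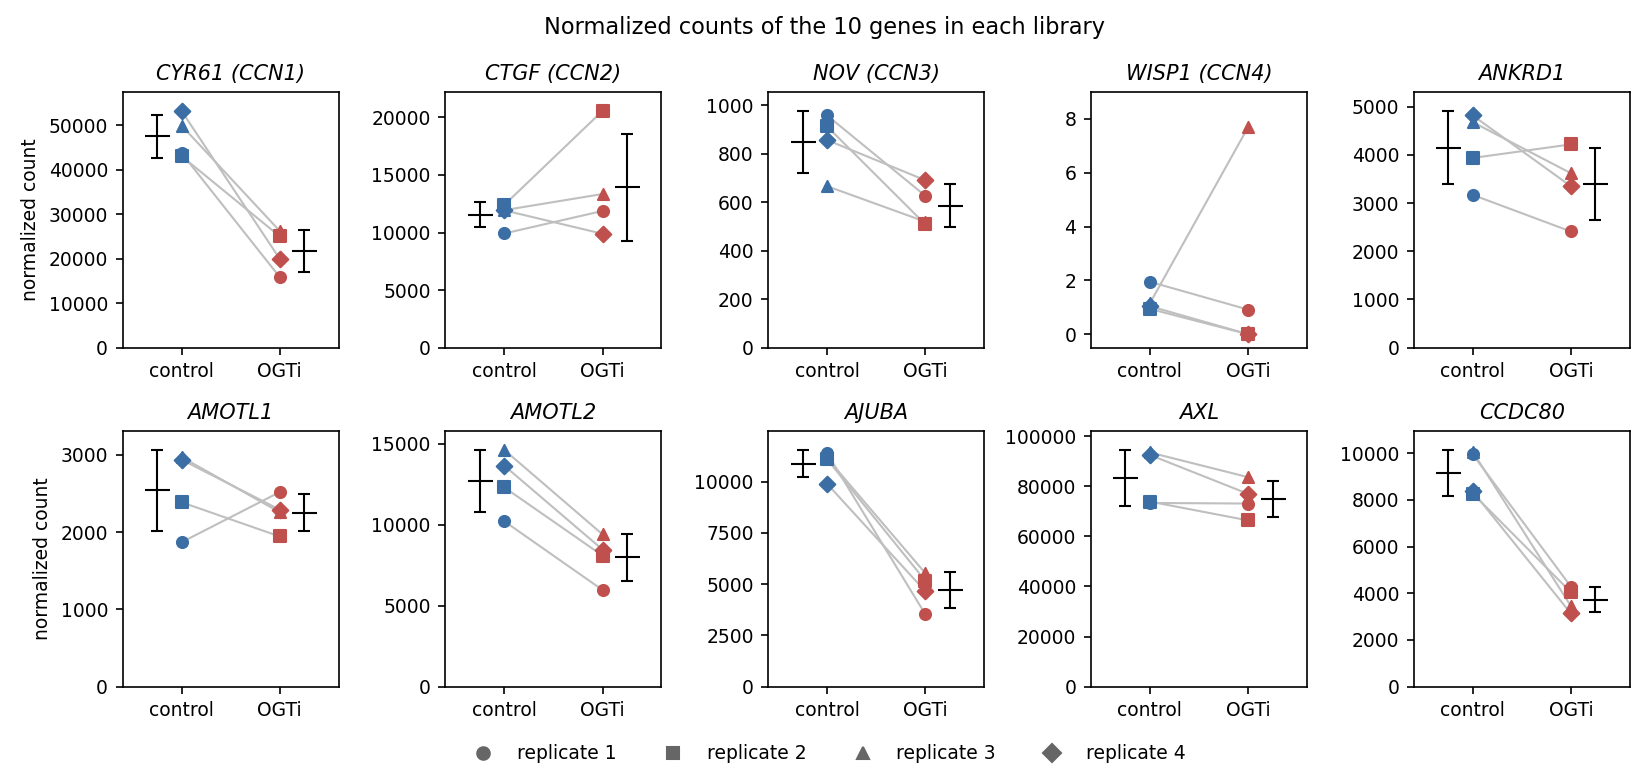
Normalized counts (expected counts divided by the library's size factor) of each of the 10 genes in the 4 control and 4 OGTi libraries; grey lines join libraries of the same replicate number, and black marks give the mean ± SD of a group (not drawn for WISP1, which had 8 counts at most). CYR61, AMOTL2, AJUBA and CCDC80 separate the groups completely, whereas for CTGF the spread of the OGTi libraries, 9891 to 20562, covers the whole control range.

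The CCN genes did not move together. CYR61 (GRCh38 chromosome 1, 85580761 to 85584589, plus strand), an immediate early gene whose product is an integrin ligand, had the highest mean of the 10 per unit of transcript length in control cells. On this measure it overlapped with AXL. It measured 43718, 43029, 49906 and 53183 normalized counts in control replicates 1 to 4 and 15858, 25016, 26226 and 19958 in OGTi replicates 1 to 4. The highest OGTi library lay far below the lowest control library. The means were 47459 ± 4912 and 21764 ± 4783 (SD, n = 4), so that 45.2% of the control level was left (log2 fold change -1.15 ± 0.16, SE; q = 2.65e-11). The 4 pairs gave log2 ratios of -1.46, -0.78, -0.93 and -1.41, with the deeper drops in replicates 1 and 4.

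CTGF (chromosome 6, 131948176 to 131951372, minus strand), the profibrotic paralog of CYR61 and a mediator of TGF-beta responses, gave a different picture. Control replicates 1 to 4 held 9919, 12402, 11946 and 11929 normalized counts, and OGTi replicates 1 to 4 held 11874, 20562, 13346 and 9891. The groups overlapped, with OGTi replicate 2 well above every other library and OGTi replicate 4 the lowest of all 8. The change was 0.22 ± 0.23 (q = 0.457), and 3 of 4 pairs were higher under OGTi. The coefficient of variation was 33.4% among OGTi libraries against 9.60% among controls, whereas counting alone would give 0.836% in OGTi. The outcome turned on replicate 4, without which CTGF was called higher (0.38, q = 0.00243), and without replicate 2 the change was 0.05.

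NOV (CCN3, chromosome 8), which in several settings opposes the fibrogenic action of CTGF, was expressed at a much lower level. Its normalized counts were 959, 913, 667 and 857 in the control libraries and 627, 509, 520 and 691 in the OGTi libraries. OGTi replicate 4 was above control replicate 3, so the groups overlapped, but every pair was lower. The mean went from 849 ± 128 to 587 ± 87.5, a called fall of 0.53 on the log2 scale with an SE of 0.12 (q = 2.97e-05). WISP1 (CCN4, also on chromosome 8), a Wnt-induced member, had 2, 1, 1 and 1 expected counts in control and 1, 0, 8 and 0 in OGTi. With 7 of 8 libraries at or under 3 counts, no fold is given. The remaining family members were WISP2 (CCN5), at 1.88 to 5.75 normalized counts in control and 0 in 3 of 4 OGTi libraries, and WISP3 (CCN6), for which no row was analysed here.

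ANKRD1 (chromosome 10, 90912096 to 90921087, minus strand) encodes a nuclear and sarcomeric ankyrin-repeat protein that responds to stretch. It measured 3170, 3936, 4681 and 4819 normalized counts in control and 2411, 4218, 3620 and 3350 in OGTi, with overlapping groups. Replicate 2 was the exception to a drop in the other pairs, with pair log2 ratios of -0.39, 0.10, -0.37 and -0.52. The fit called it lower (-0.30 ± 0.10, q = 0.00565), and this call was lost without the replicate block (q = 0.136 in DESeq2 and 0.158 in edgeR) and without replicate 4 (-0.22, q = 0.116). Of its family, ANKRD23 had 104 ± 14.7 and 119 ± 10.5 normalized counts (0.20 ± 0.22, q = 0.480), and ANKRD2 was at 0 in 7 of 8 libraries.

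The 3 readout genes were then compared within each library, as the log2 ratio of one to another, which removes any scaling of the library as a whole. CYR61 exceeded CTGF by 2.14, 1.79, 2.06 and 2.16 log2 units in the control libraries and by 0.42, 0.28, 0.97 and 1.01 in the OGTi libraries. The groups did not overlap, and the mean ratio went from 2.04 ± 0.17 to 0.67 ± 0.38. This difference of -1.37 had p = 0.0286 in a two-sided exact permutation test, the smallest that 4 against 4 libraries allow, and q = 0.0476 over the 5 ratios tested. Each q depends on how many of the 5 ratios reach that smallest p, and the ratios among the readout genes share genes. CYR61 also dropped against ANKRD1, from 3.53 ± 0.17 to 2.68 ± 0.14 (difference -0.85, exact permutation p = 0.0286, q = 0.0476), again without overlap. The ratio of CTGF to ANKRD1 was 1.49 ± 0.19 in control and 2.01 ± 0.35 in OGTi, and the difference of 0.52 did not pass (exact permutation p = 0.0857, q = 0.107), although each pair was higher. When the test flips signs within pairs, the smallest p possible is 0.125, so that design cannot reach the threshold for any ratio.

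**Figure D2:**
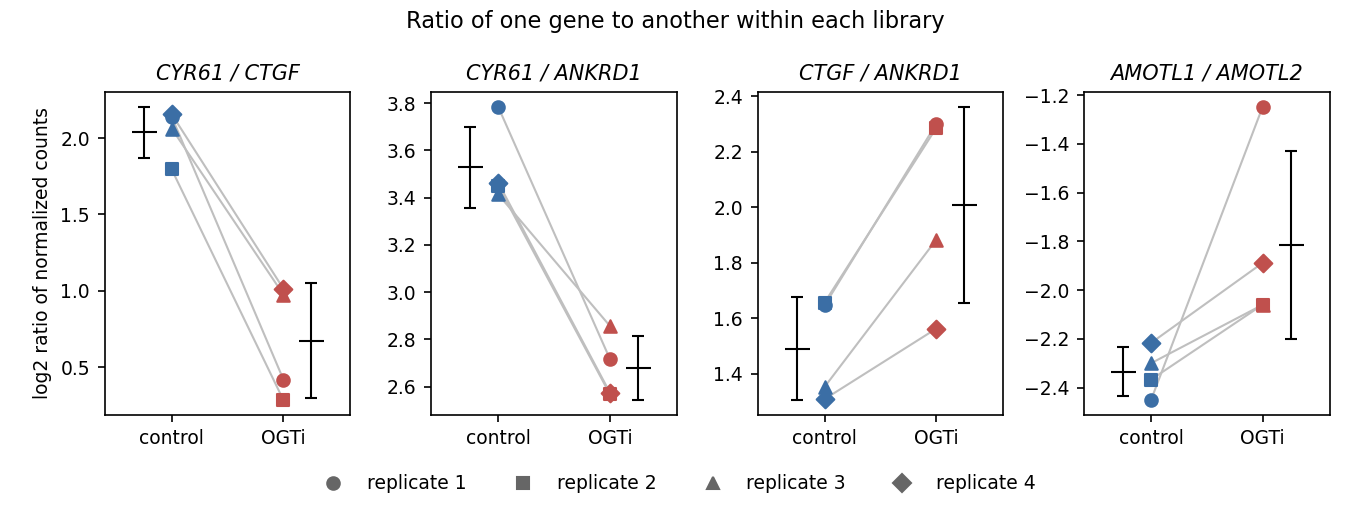
Log2 ratio of the normalized counts (plus 1) of one gene to another in each library, for 4 of the 5 ratios tested; the axes do not start at 0, grey lines join replicate pairs, and black marks are mean ± SD of 4 libraries. CYR61 loses ground to CTGF and to ANKRD1 in every pair, and the high AMOTL1 to AMOTL2 ratio of OGTi replicate 1 (-1.25) stands above the other OGTi libraries.

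The motin genes encode scaffold proteins of cell junctions that bind YAP1 and keep it out of the nucleus, and AMOTL2 is itself a YAP target, so it belongs to a feedback loop. AMOTL2 (chromosome 3, 134355347 to 134375479, minus strand) measured 10222, 12315, 14631 and 13656 normalized counts in control and 5976, 8102, 9413 and 8474 in OGTi. All OGTi libraries were below all controls, and the pairs agreed closely, from -0.77 to -0.60. Its mean went from 12706 ± 1909 to 7991 ± 1452 (-0.68 ± 0.07, q = 9.43e-24). A processed pseudogene, RPL39P5, overlaps it on the same strand and has no row in the count files.

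AMOTL1 (chromosome 11, 94706431 to 94876748, plus strand) held 1868, 2385, 2969 and 2936 normalized counts in control and 2517, 1943, 2256 and 2289 in OGTi. Replicate 1 went up and the other pairs went down, so the groups overlapped and AMOTL1 was not called (-0.16 ± 0.19, q = 0.539). Without replicate 1 it was called lower (-0.35, q = 0.000223). AMOT, the founding member, went from 827 ± 91.4 to 507 ± 23.0 (-0.70 ± 0.11, q = 4.55e-09). The log2 ratio of AMOTL1 to AMOTL2 was -2.45, -2.37, -2.30 and -2.22 in control and -1.25, -2.06, -2.06 and -1.89 in OGTi, without overlap. The mean difference was 0.52 (exact permutation p = 0.0286, q = 0.0476), and it was 0.29 without replicate 1.

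AJUBA (chromosome 14, 22971177 to 22982551, minus strand) encodes a LIM-domain protein that links actin to adherens junctions and restrains the Hippo kinases LATS1 and LATS2. Its normalized counts were 11386, 11094, 11147 and 9895 in control and 3533, 5171, 5538 and 4656 in OGTi. The control libraries were the tightest of the 10 genes, with a coefficient of variation of 6.15%, and no OGTi library came near them. The mean dropped from 10881 ± 669 to 4724 ± 873, or 42.9% of control (-1.22 ± 0.10, q = 1.55e-33). The annotation holds a protein-coding gene without a symbol over nearly the same interval and strand, which has no row in the files, so the reads could belong to either. Its close relative WTIP had 387, 507, 414 and 457 normalized counts in control and 87.7, 127, 154 and 100 in OGTi, also without overlap (-1.93 ± 0.17, q = 6.65e-28). LIMD1, the other Ajuba-type protein, was at 2166 ± 42.7 and 1997 ± 89.6 and was not called (-0.12 ± 0.08, q = 0.206).

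AXL (chromosome 19, 41219223 to 41261766, plus strand), a receptor tyrosine kinase of the TYRO3, AXL and MERTK (TAM) group that senses the ligand GAS6 and is linked to stellate cell activation, had the most reads of the 10 genes. Control libraries measured 73348, 73901, 93504 and 92512 normalized counts and OGTi libraries 73115, 66380, 83649 and 76986. Replicates 3 and 4 were higher than 1 and 2 in the control group, and the groups overlapped. All 4 pairs were lower, with log2 ratios of -0.00, -0.15, -0.16 and -0.27, and AXL missed the threshold (-0.15 ± 0.07, q = 0.0542), which it passed without replicate 1 (-0.19, q = 0.0109). AXL made up 43.9% to 46.9% of the normalized counts of the 10 genes in control and 48.8% to 60.8% in OGTi.

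The other TAM receptors moved in opposite directions. TYRO3 went from 1800 ± 196 to 950 ± 32.4 (-0.92 ± 0.09, q = 2.93e-21). MERTK, the receptor best known from macrophages clearing dead cells, rose from 270, 270, 180 and 268 normalized counts in control to 585, 697, 699 and 612 in OGTi. That increase, 1.40 ± 0.15 on the log2 scale (q = 1.71e-19), was the only called rise among the 8 tested relatives. Macrophage markers summed to 65.5 to 102 normalized counts in control and 48.1 to 97.4 in OGTi. Of the ligands, GAS6 fell from 2825 ± 328 to 1525 ± 173 (-0.89 ± 0.09, q = 1.37e-23), and PROS1 was at 248 ± 23.9 and 218 ± 47.1 (-0.20 ± 0.16, q = 0.331). Among the relatives and ligands, 4 of 8 were called lower and 1 higher, beside 24.0% and 22.7% of all genes tested.

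CCDC80 (chromosome 3, 112596797 to 112649530, minus strand), a secreted matrix-binding protein of mesenchymal cells, had the largest estimated change of the 10 genes. Its libraries held 9957, 8278, 10068 and 8371 normalized counts in control and 4290, 4051, 3457 and 3136 in OGTi. Every control library was far above every OGTi library. The mean went from 9168 ± 977 to 3734 ± 530, or 40.6% of control (-1.30 ± 0.09, q = 1.68e-49), and the pairs ranged from -1.54 to -1.03. Its rank above AJUBA was not firm. AJUBA changed more without replicate 3 (-1.30 against -1.22) and slightly more without replicate 4 (-1.27 against -1.26).

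**Figure D3:**
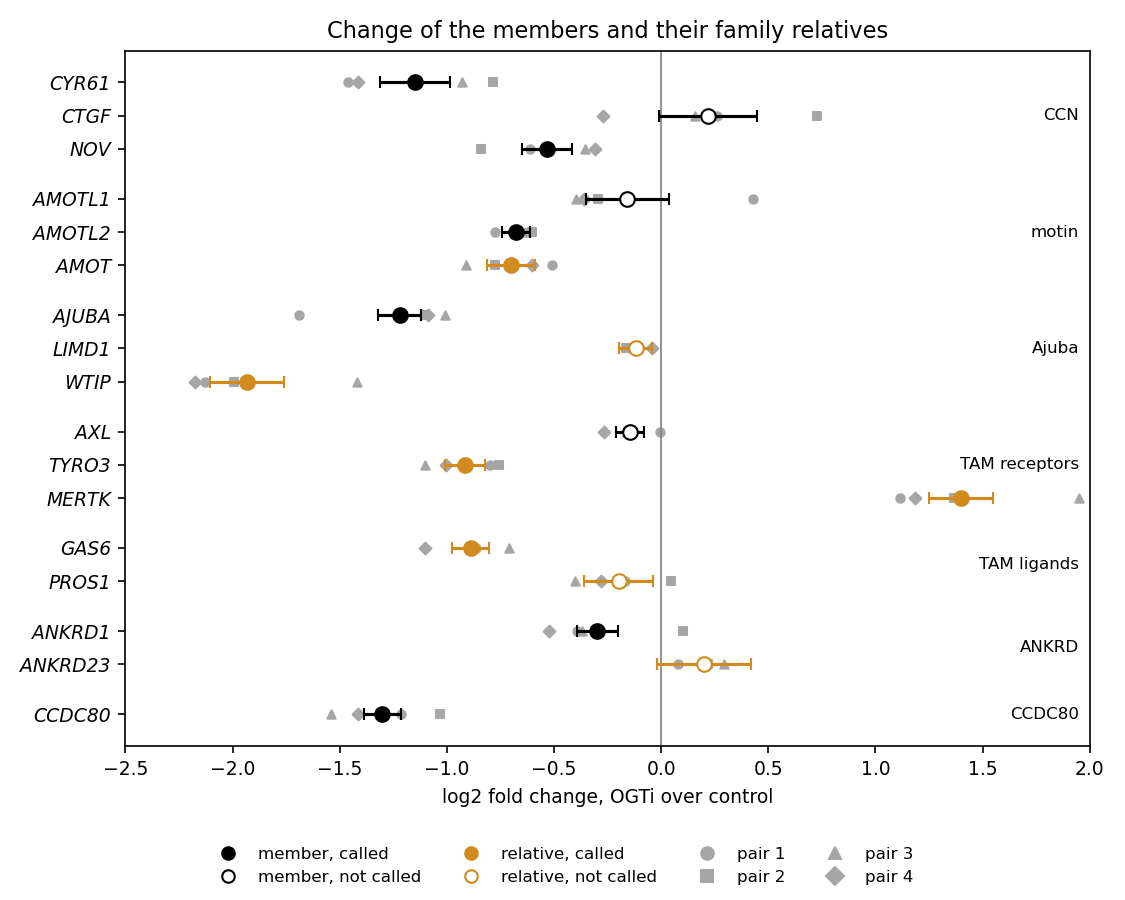
Change under OGTi against control (log2 fold change, with its SE) for the 9 tested genes (black) and their 8 tested relatives and ligands (orange), grouped by family; filled symbols were called at q of 0.05 or lower, open ones were not, and grey symbols are the 4 replicate pairs. Each family with 2 or more tested genes holds both called and uncalled genes, and MERTK, at 1.40, is the only called gene to the right of 0.

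Levels were compared between genes as TPM, a level per unit of transcript length computed from the expected counts, on which each library has the same sum. In control cells CYR61 averaged 2045 TPM and AXL 1735 TPM, with overlapping ranges. CTGF followed at 485 TPM, apart from its neighbours in the order. AMOTL2, AJUBA and ANKRD1, at 257, 256 and 228 TPM, overlapped from one to the next, as did NOV at 33.8 TPM and AMOTL1 at 27.8 TPM. CCDC80, at 73.2 TPM, stood apart from its neighbours, and WISP1 was at 0.0240 TPM. Under OGTi the order at the top changed, with AXL (1613 TPM) above CYR61 (966 TPM) without overlap. CYR61 now overlapped with CTGF (599 TPM), from which it had been separate in control. ANKRD1 (192 TPM), AMOTL2 (166 TPM) and AJUBA (115 TPM) overlapped between neighbours, and so did CCDC80 (30.7 TPM), AMOTL1 (25.4 TPM) and NOV (24.2 TPM).

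Beyond the 10 genes, a list of other YAP and TEAD targets was described by its counts. Of its 15 tested genes 11 were called lower and NT5E, the ecto-enzyme CD73, was called higher (0.43 ± 0.08, q = 1.83e-06), with a list median of -0.43. Among all genes tested, 24.0% were called lower and 22.7% higher. The largest test statistics belonged to TGFB2, a TGF-beta ligand, F3, which encodes tissue factor, and CRIM1, a transmembrane regulator of BMP signalling. TGFB2 went from 9884 ± 1895 to 863 ± 223 normalized counts (-3.54 ± 0.09), F3 from 12298 ± 2196 to 3866 ± 878 (-1.68 ± 0.08) and CRIM1 from 21094 ± 3818 to 11078 ± 1170 (-0.92 ± 0.07). The factors themselves were called in 6 of 6 cases, beside 46.6% of all genes tested. YAP1 (-0.50), TEAD1 (-0.54), TEAD2 (-0.60), TEAD3 (-0.55) and TEAD4 (-0.43) were lower, and WWTR1, which encodes TAZ, was higher (0.34 ± 0.09, q = 0.000670).

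Of 10 genes that encode receptors for CCN proteins, 3 were called lower, 2 higher and 5 not called, with a median of -0.14, beside 24.0% lower and 22.7% higher among all genes tested. ITGB3 (-0.63 ± 0.14, q = 4.02e-05), ITGB1 and SDC4, a heparan sulphate proteoglycan (-0.32 ± 0.08, q = 0.000298), were lower. The integrin subunits ITGA6 (0.46 ± 0.11, q = 8.28e-05) and ITGA5 (0.19 ± 0.08, q = 0.0447) were higher. Targets of SRF and its actin-sensing partner MRTF, which like YAP1 respond to actin tension, were called lower in 9 of 10 cases, with a median of -1.02, and MYH11 was near background. ACTG2, a smooth muscle actin (-2.14 ± 0.13), TPM1, a tropomyosin (-1.42 ± 0.09), and FHL2, a LIM-domain co-activator (-0.99 ± 0.09), had the largest statistics.

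Since CTGF is also a TGF-beta target, 8 genes that respond early to TGF-beta were listed. Of these 5 were called lower and 2 higher, with a median of -0.40, beside 24.0% lower and 22.7% higher among all genes tested. JUNB, an AP-1 subunit, rose from 464 ± 47.1 to 1201 ± 173 normalized counts (1.37 ± 0.12, q = 4.04e-30), and PMEPA1, an inhibitor of SMAD signalling, was higher at low counts (0.79 ± 0.34, q = 0.0423). THBS1, a matrix protein that releases active TGF-beta (-0.48 ± 0.09, q = 1.89e-06), and LTBP2, a latent TGF-beta binding protein (-0.68 ± 0.15, q = 3.68e-05), were lower.

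**Figure D4:**
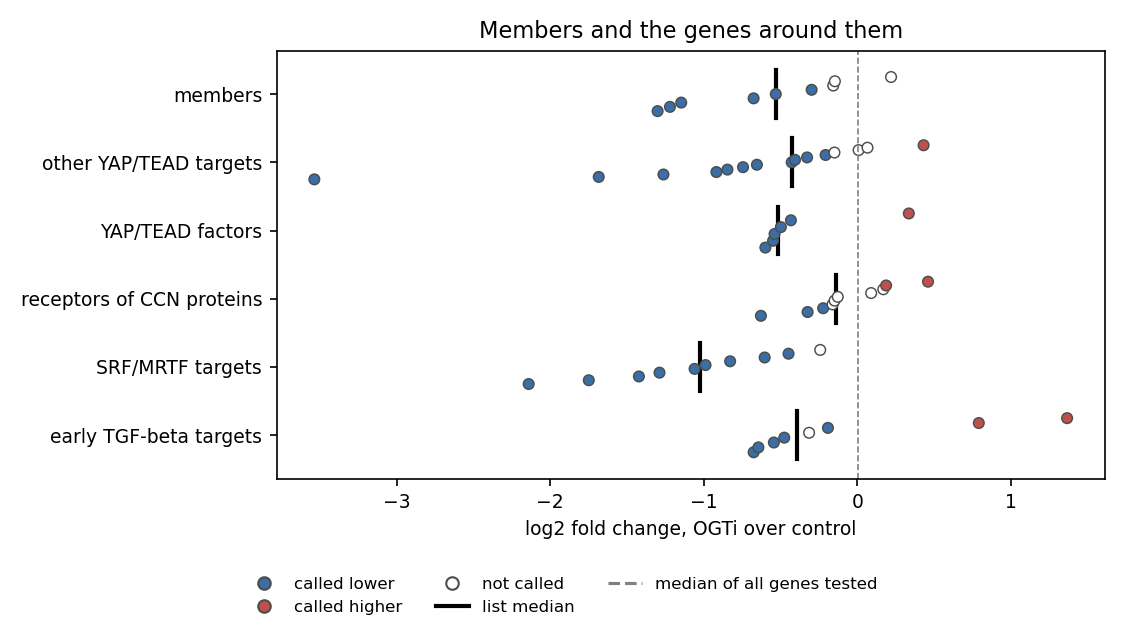
Change under OGTi against control (log2 fold change) for each tested gene of the 10 and of 5 lists around them; blue points were called lower, red higher and white not called, black bars are list medians and the dashed line is the median of all 14028 genes tested (0.00). The medians lie between -0.14 (receptors) and -1.02 (SRF/MRTF targets).

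The genes whose profiles over the 8 libraries were closest to each member were found by the root mean square difference of centred log2 values, over a pool of 10934 genes. CTGF, with its high OGTi replicate 2, was nearest to HYI (0.122 log2 units) and IL11, a profibrotic cytokine (0.133). CYR61 was nearest to WDR66 (0.118) and OSR1, a mesenchymal transcription factor (0.132). AJUBA was nearest to TFAP2A (0.123) and TMEM19 (0.124), and NOV to SPACA6 (0.0889) and TMEM218 (0.107). The smallest distances were those of AXL to SF3A1 (0.0380) and LANCL1 (0.0466). The profiles were not scaled, so a gene that changed little, such as AXL (-0.15), lies near other genes that changed little. AMOTL2 resembled ENAH, an actin regulator (0.0534), and CABLES1 (0.0820). AMOTL1 resembled PTPN14, itself a regulator of YAP1 (0.0708), and DST (0.0772). CCDC80 resembled SHROOM2 (0.0613) and ADAM19 (0.0998), and ANKRD1 resembled TDP1 (0.0786) and DPYSL4 (0.0845). All 8 libraries enter each distance, so treatment, replicate and depth are shared by every gene compared.

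Across 10 other settings of test, scaling, filter and left-out replicate, 84 of 90 values for the 9 tested genes kept their direction and their side of the threshold. CYR61, NOV, AMOTL2, AJUBA and CCDC80 were called lower in each of the 10. The 6 exceptions were the values given above for CTGF, AMOTL1, AXL and ANKRD1, the last with 3. All 6 arose without the replicate block or with a replicate left out, whereas other scaling and filters moved the fold changes little.

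**Figure D5:**
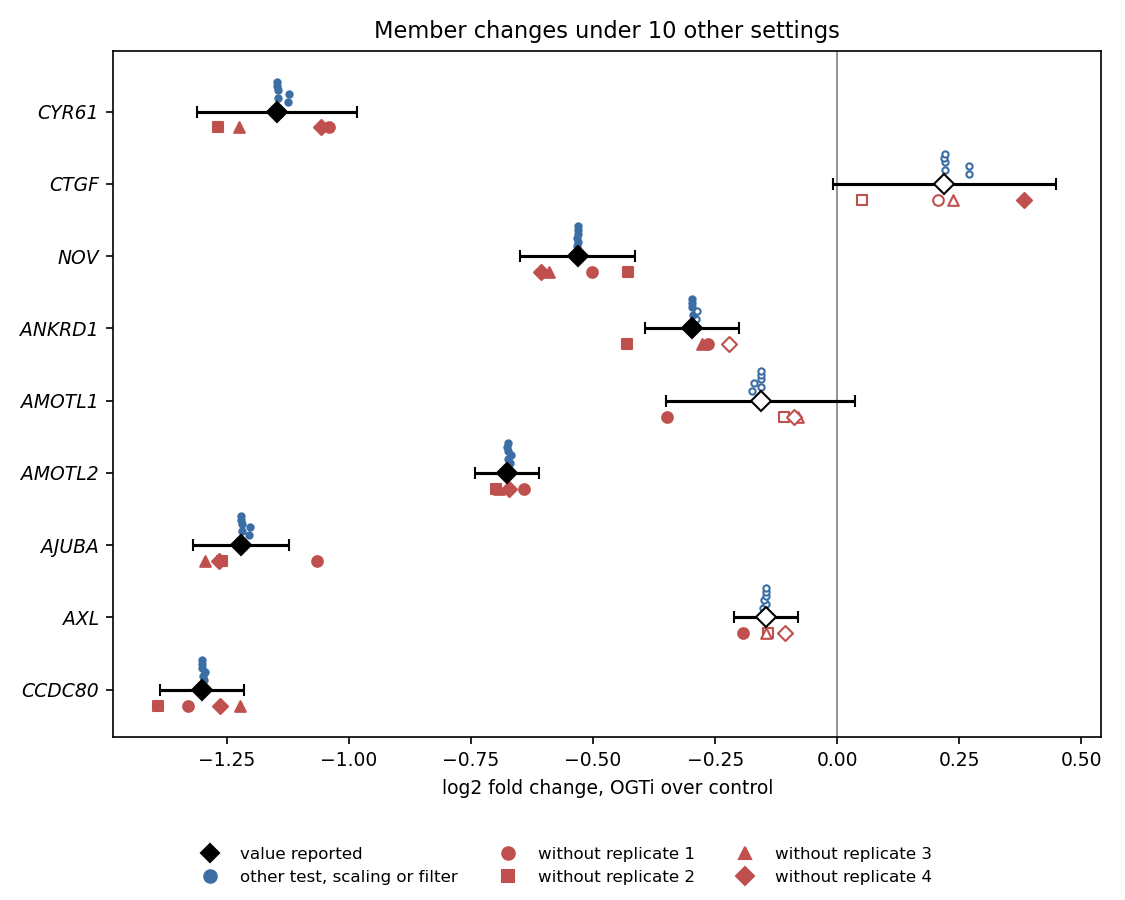
Change under OGTi against control (log2 fold change) for the 9 tested genes as reported (black diamonds, with SE), under 6 other tests, scalings or filters (blue) and without each replicate (red); filled symbols were called at q of 0.05 or lower. CTGF ranges from 0.05 to 0.38 depending on the replicate left out, and CCDC80 from -1.39 to -1.22.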

How the data were processed

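The authors' deposited files held expected counts per gene and library, that is estimated counts in which RSEM divides a read among its alignments; 12.9% to 16.3% of genes per library were fractional. Per the labels and methods, stranded, paired-end libraries of oligo dT-enriched RNA were aligned to hg38 with Bowtie2 2.3.5.1 and counted with RSEM 1.3.1. A deposited table of the authors' own DESeq2 1.36.0 comparison (fold changes and p-values) was not used.

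Expected counts were rounded, and genes with a total under 10 were removed, leaving 14895. DESeq2 1.42.0 in R 4.3.3 was fitted with replicate number as a block, following the study's pairing, with independent filtering and no shrinkage. Adjusted p-values (q, Benjamini-Hochberg) covered 14028 genes, and 0.05 was the threshold. Deviations from group means correlated between libraries of the same number (Pearson's r across 13082 genes of 0.295, 0.243, 0.111 and 0.189 for replicates 1 to 4); control replicate 3 was closer to OGTi replicate 4 (0.191). Ratios used normalized counts plus 1 and two-sided exact permutation tests (SciPy 1.17.1, Python 3.11.15). TPM used the canonical transcript lengths of GENCODE release 44, by which 16218 genes were matched and located. The fit was tested on simulated counts with known folds but no replicate effect, so that simulation did not test the block. Alternatives were edgeR 4.0.16, fits without the block, TMM factors, other filters and each replicate left out.

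The members and lists were chosen with earlier results of these data known. The genes named were all members, their relatives and the YAP and TEAD factors; in each other list the 3 called genes with the largest statistic and each called gene moving against the list's median; and the 2 nearest profiles of each member. ITGB1 and MYH11 were named after their values were seen, to complete counts. The cell type markers and OGT were named outside this rule, CDH5 and KRT7 for their part in the falls of their sums. The WTIP promoter was printed for its matches.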

Additional observations from a re-analysis of the deposited data

Results flagged for a closer look

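Of 20 groups of 4 libraries examined for a library far from the others, 1 was picked out, about the number that chance gives. WISP1 had 7.69 normalized counts in OGTi replicate 3 and between 0 and 0.914 in the other OGTi libraries.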

How the results depend on the processing

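The 3 ratios that passed differed by -1.37 (CYR61 to CTGF), -0.85 (CYR61 to ANKRD1) and 0.52 (AMOTL1 to AMOTL2). A replicate block leaves these mean differences unchanged by arithmetic and alters only the p-value. With 4 replicates per group, the exact sign-flip test cannot go below p = 0.125 (q = 0.156). Without each replicate in turn the 3 differences ranged from -1.46 to -1.25, from -0.95 to -0.78 and from 0.29 to 0.61. An exact test of 3 against 3 libraries cannot go below p = 0.1. The ratio of NOV to WISP1 (-0.38, exact permutation p = 0.914) ranged from -0.75 to 0.28 without each replicate and reversed to 0.28 without replicate 3. It was -0.12 with a pseudocount of 0.5 and -0.60 with 5 (exact permutation p = 0.0857), since WISP1 had at most 2 counts in 7 of 8 libraries. ANKRD1 was -0.29 and not called without the block in DESeq2 (q = 0.136) and edgeR (q = 0.158). Without each replicate in turn ANKRD1 ranged from -0.43 to -0.22, CTGF from 0.051 to 0.38, AMOTL1 from -0.35 to -0.080 and AXL from -0.19 to -0.11, the number of members called lower from 5 to 8, and the number called higher from 0 to 1. The block changed no other call among the members. Genes called higher numbered 3181 and, under the alternatives, 2416 to 3481, and genes called lower 3360 and 2670 to 3593.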
